A study of Labrus bergylta with 24 samples.

Results

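The genes of the proteasome were followed along the intestine of the ballan wrasse (Labrus bergylta), a fish without a stomach. Members were taken by name: every gene model of the deposited table whose name begins with PSM, a letter from A to G and a digit, whatever its case. This gave 58 of the 27392 gene models. One of them, PSMC3IP (LABE_00052042), codes for a partner protein of meiotic recombination and not for a part of the proteasome, and it was kept out of every count of members below. The remaining 57 models carried 47 distinct names, since 10 names belonged to 2 models each. Of the 57 models, 56 passed the filter on low values (6 or more libraries at 10 or above). The exception was 1 of 2 models named Psmc4 (LABE_00083278), with segment medians between 0 and 1.54.

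By the labels, the intestine of each of 6 farmed fish was cut into 4 consecutive segments, numbered in order along its length up to segment 4, the hind-gut, and RNA from each segment was sequenced on its own. This gave 24 libraries (the methods of the study name other numbers of fish and libraries, and the labels were followed), with 6 fish per segment and every fish present in all segments. The labels give no treatment, genotype, sex or age, so position along the gut is all that the labels set between the groups. The values are normalized counts, that is the reads of each model after scaling every library by its DESeq2 size factor. They carry no gene length, so levels were compared between segments and not between genes.

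The proteasome is the large protease that degrades proteins tagged with ubiquitin. Its core particle is a barrel with alpha rings (PSMA subunits) at its ends and beta rings (PSMB subunits) inside, and 3 of the beta subunits of each ring, PSMB5, PSMB6 and PSMB7, cut the substrate. In mammals interferon gamma induces PSMB8, PSMB9 and PSMB10, which replace them and form the immunoproteasome, a source of peptides for MHC class I. The cap, or regulatory particle, has a base with a ring of ATPases (PSMC) that unfold the substrate, and a lid (most PSMD subunits) that takes off the ubiquitin. Activators of the PSME group can sit on the core in place of the cap, and PSMG proteins with PSMD5, PSMD9 and PSMD10 are chaperones of its assembly. The gut epithelium is renewed throughout life and lies next to many leukocytes, a cell type in which the immunoproteasome is known to be common.

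The libraries held between 7867202 and 29650319 reads. The members together took a median of 0.484%, 0.527%, 0.578% and 0.663% of the reads of a library in segments 1 to 4. The range was 0.561% to 0.753% in segment 4, against 0.418% to 0.601% in segment 1. PSMC3IP is counted in for this share alone. Such a share also moves with the level of every other transcript in the library, and changes in normalized counts are given below. Libraries of fish 2 stood apart. Over the 5963 gene models that differed among segments in the other 5 fish, its segment 4 library correlated at 0.577 with the mean profile of segment 4, against 0.855 to 0.938 for the segment 4 libraries of the others, and its segment 3 library at 0.329 with segment 3, against 0.358 to 0.801. The segment 2 and segment 3 libraries of fish 6 were also low, at 0.362 and 0.358. These models were chosen on the other fish, which favours those fish. In segment 4 the library of fish 2 also had the highest summed level of 7 enterocyte marker names in 23 models (342737, with the other 5 at 140177 to 187172). Its summed level of 7 leukocyte names in 12 models was the lowest by little (163927, against 164204 to 222527). That of 10 cycling-cell names in 11 models was also the lowest (12421, against 14478 to 44384). Fish 2 was the lowest fish for leukocyte sums in segments 2 and 3 too, and for cycling-cell sums in segments 1 and 2. Counts that rest on segment 4, and single calls that change, are therefore also given without this library. It was picked on these same data. Its members also stood lowest in segment 4, with a median log2 deviation from their own means of -0.13, against 0.09 to 0.45 in the others. Leaving it out thus raises the members' median in segment 4, and a pass without it is no added evidence.

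Cell markers moved with position too. Of the enterocyte models tested, 2 were higher and 15 lower of 22 in segment 4 than in segment 1 (adjusted p under 0.05 in limma), with summed levels of 140177 to 342737 in segment 4 and 626941 to 1056240 in segment 1. Leukocyte models were higher in 5 of 11 and lower in 0 (8 and 1 with fish as a block, 7 and 0 without the segment 4 library of fish 2), with sums of 163927 to 222527 in segment 4 and 124468 to 138879 in segment 1. Cycling-cell models were higher in 10 of 11 and lower in 0, with sums of 12421 to 44384 in segment 4 and 8828 to 13384 in segment 1. No model of these lists was at 0 in all libraries. The part of these shifts in the results below was not tested, and in whole tissue fewer cells of a type and less RNA per cell cannot be told apart.

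In normalized counts most proteasome transcripts were slightly higher in segment 4, and segments 1 to 3 showed no common shift. The 56 models had a median log2 fold change of 0.22 in segment 4 against segment 1, where the median over all 19515 models tested was 0.04, and 50 of the 56 lay above 0 (89.3%, against 53.0% of all models). Against segments 2 and 3 the medians were 0.20 and 0.20, with 52 and 52 of 56 models above 0, where 51.7% and 49.1% of all models were. These 3 comparisons share the segment 4 libraries. Many members also moved together from library to library (mean r of 0.53 in core and cap, below). The models above 0 are thus not independent of each other. Between segments 2 and 1 the members' median was 0.01, and between segments 3 and 1 it was 0.01.

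The single changes were small, and few passed the test. In segment 4 against segment 1, 10 of 56 models rose and 1 fell (limma on log2(value + 1), Benjamini-Hochberg adjusted p under 0.05), against a background of 17.1% of all tested models higher and 14.8% lower. The members' 17.9% higher was near the background in this fit, which has no term for fish. Folds of the 10 models ran from 1.17 to 1.45. Against segment 2, 6 rose and 1 fell (background 9.72% and 10.8%), and against segment 3, 1 rose and 0 fell (background 5.21% and 5.82%). In segment 3 against segment 1, 0 rose and 2 fell (background 7.13% and 6.81%). Segment 3 against segment 2 gave 0 and 0 (background 1.01% and 1.07%), as did segment 2 against segment 1 (background 0.477% and 0.200%). Over all 4 segments at once, 7 of 56 models differed (moderated F test), against 27.5% of all models.

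These counts depended on which libraries and which source of spread entered the fit. With fish as a block, which compares segments within fish, 22 of 56 models rose in segment 4 against segment 1. Against segments 2 and 3 it was 13 and 11. Of all models 22.0%, 14.7% and 8.67% rose, each less than the members' share. Without the segment 4 library of fish 2 the counts were 24, 18 and 20 of 56. Of all models 18.0%, 11.7% and 7.48% were higher, less than the members' shares. The members' median log2 fold change against segment 1 was then 0.29. Members stood lowest in segment 4 in that library, so leaving it out raises their levels there and is no added evidence. All 10 models that rose in the fit without a block also passed with it, and 9 of the 10 passed without that library. Leaving out fish 1, 2, 3, 4, 5 or 6 left 9, 16, 5, 2, 5 and 5 models higher in segment 4 than in segment 1. No share of all models is set beside these 6 counts, so they do not compare the members with other models. Only PSMA2, PSMB2 and psme4b (LABE_00014027) of the 11 called models passed in each of these 6 fits.

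**Figure D1:**
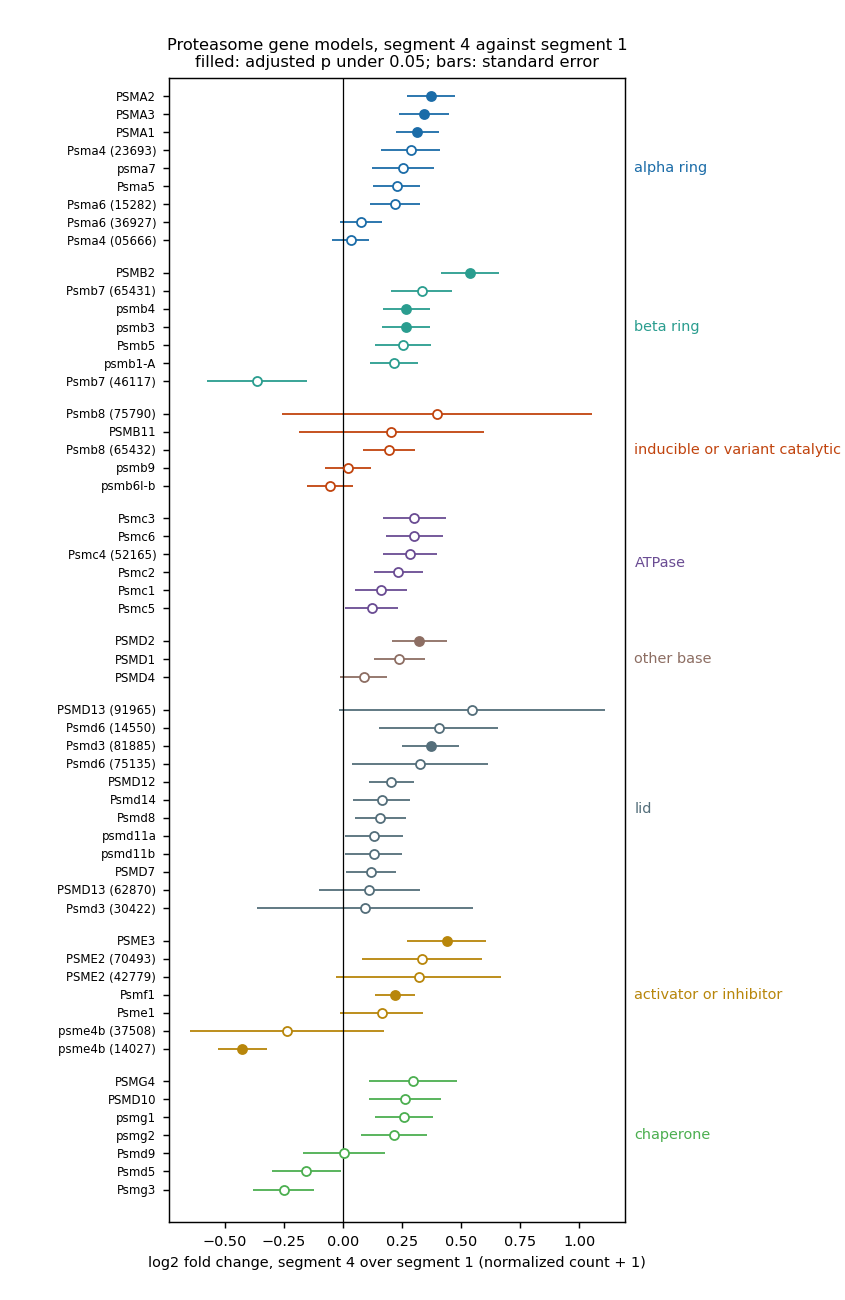
Log2 fold change of each of the 56 tested proteasome gene models in segment 4 over segment 1 (x axis, log2 of normalized count + 1), grouped by class, with bars for the standard error and filled points for an adjusted p under 0.05 (6 fish per segment, limma). Of the 56 points, 50 lie to the right of 0, and the filled ones are 10 to the right and psme4b to the left.

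Fish differed in how far the level moved. The median over the 56 models of the log2 difference between segment 4 and segment 1 of the same fish was 0.17 in fish 1, 0.07 in fish 2, 0.13 in fish 3, 0.38 in fish 4, 0.42 in fish 5 and 0.13 in fish 6. Between segment 4 and segment 3 it was 0.46, -0.11, 0.11, 0.44, 0.11 and 0.21 for fish 1 to 6. Fish 2 was thus the only fish whose segment 4 lay below its segment 3, with 17 of 56 models higher in segment 4.

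**Figure D2:**
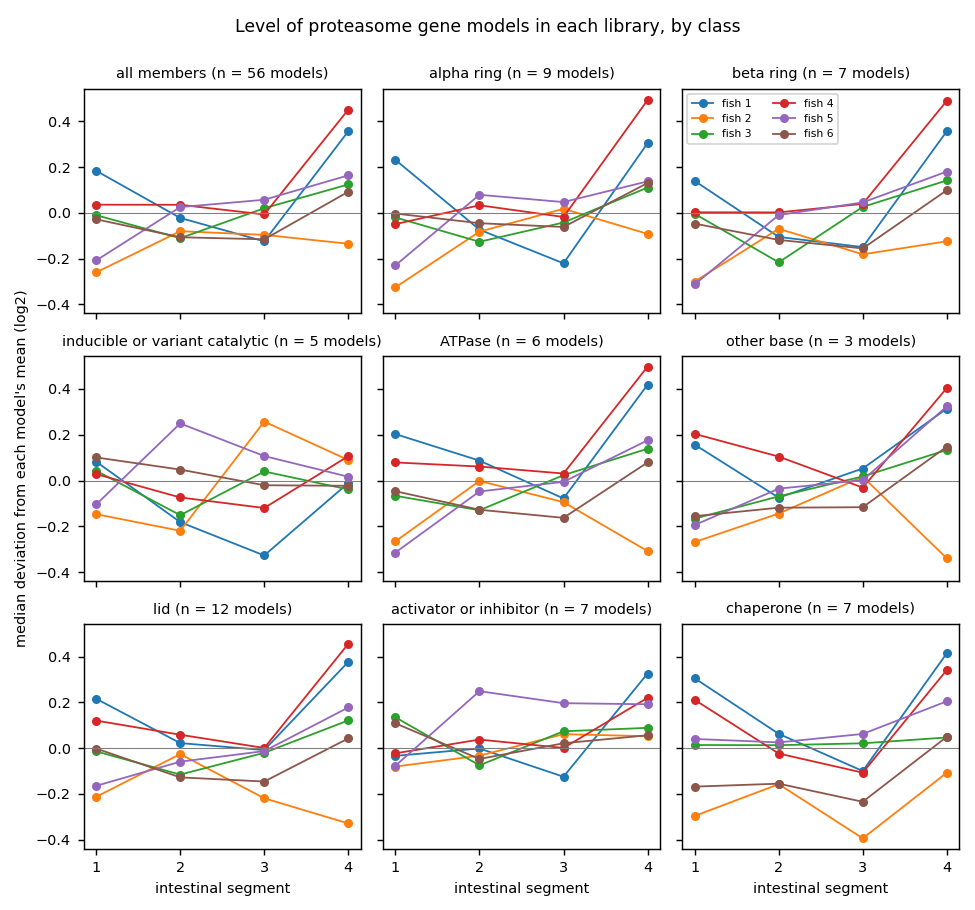
Median over the models of a class of the deviation from each model's own mean (y axis, log2) in each library, by segment (x axis) and fish (coloured lines), for all 56 members and each of 8 classes. Segment 4 of fish 4 and fish 1 lies highest (0.45 and 0.36 over all members), and segment 4 of fish 2 lies at -0.13.

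The alpha ring forms the gate of the core. All 9 of its tested models had a positive fold change in segment 4 against segment 1, with a median of 0.26, and 3 passed (background 17.1% higher). With fish as a block 5 passed (background 22.0%), and without the segment 4 library of fish 2 it was 6 (background 18.0%). PSMA2 (LABE_00001535) stood at 4844, 6157 and 7119.5 normalized counts in segment 4 (lowest, median and highest of 6 fish), against 3744, 4838 and 5362 in segment 1. The groups overlapped through the low segment 4 value of fish 2 alone, and every fish was higher in its own segment 4. Its log2 fold change was 0.37 (standard error 0.10, adjusted p = 0.00609), and its medians in segments 2 and 3 were 5041 and 4986.

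PSMA3 (LABE_00054751) stood at 3318, 4064 and 5193 in segment 4, against 2779, 3335 and 4026 in segment 1. PSMA1 (LABE_00021284) stood at 3791, 4389.7 and 5629, against 3144, 3751 and 4472. Both overlapped between the segments and both were higher in segment 4 in 6 of 6 fish. The log2 fold changes were 0.34 for PSMA3 (standard error 0.11, adjusted p = 0.0142) and 0.32 for PSMA1 (standard error 0.09, adjusted p = 0.00999). Both calls were lost without fish 4 (adjusted p = 0.0525 for PSMA3 and 0.0576 for PSMA1), and that of PSMA3 also without fish 5 (adjusted p = 0.0599). PSMA1, PSMA2 and PSMA3 also passed against segment 2 (adjusted p = 0.0399, 0.0281 and 0.0126). The other 6 alpha models ran from 0.03 to 0.29, the lowest being 1 of 2 models named Psma4 (LABE_00005666), whose segment medians stayed between 1204 and 1222.5.

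Among the beta subunits, PSMB2, PSMB3 and PSMB4 hold the ring together and have no catalytic site. Of the 7 models counted in the beta ring, 3 rose in segment 4 against segment 1 and 0 fell (background 17.1% and 14.8%), against 6 and 1 with fish as a block (background 22.0% and 19.8%) and 5 and 0 without the segment 4 library of fish 2 (background 18.0% and 15.5%). PSMB2 (LABE_00058188) changed more than any other called member of the core. Its lowest, median and highest values were 1580.1, 2196 and 2738 in segment 4, against 1268, 1489.6 and 1757 in segment 1, and its medians in segments 2 and 3 were 1505 and 1739.8. It was higher in segment 4 in 6 of 6 fish, with overlap through fish 2, and its log2 fold change was 0.54 (standard error 0.12, adjusted p = 0.00152). The same model passed against segment 2 (log2 fold change 0.49, adjusted p = 0.00534).

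The model psmb4 (LABE_00067118) stood at 3540.0, 4078 and 5277 in segment 4, against 2910.5, 3555 and 3981 in segment 1. It rose by 0.27 on the log2 scale (standard error 0.10, adjusted p = 0.0381) and was the single member to pass against segment 3 (log2 fold change 0.31, adjusted p = 0.0397). The model psmb3 (LABE_00051615) stood at 2098, 2612 and 3210.5 in segment 4, against 1794, 2316 and 2466 in segment 1 (log2 fold change 0.27, standard error 0.10, adjusted p = 0.0482). For both models the ranges overlapped, 6 of 6 fish were higher in segment 4, and the call was lost without fish 1, 3, 4, 5 or 6 (adjusted p of at most 0.140 for psmb4 and 0.185 for psmb3). The model psmb1-A (LABE_00000203), another subunit without a catalytic site, had a log2 fold change of 0.22 that did not pass (adjusted p = 0.106), but passed with fish as a block (adjusted p = 0.0404) and without the segment 4 library of fish 2 (0.28, adjusted p = 0.0279).

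**Figure D3:**
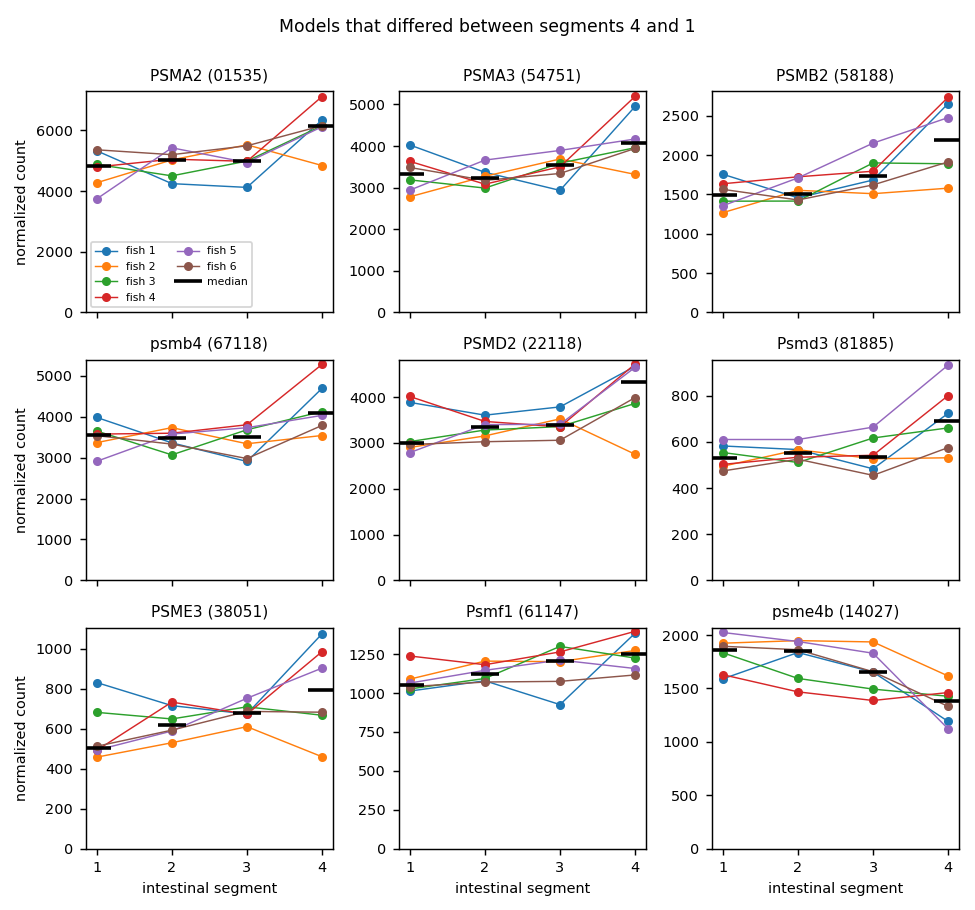
Normalized counts (y axis, linear from 0) of 9 of the 11 models that differed between segments 4 and 1, in each of 6 fish (coloured lines) along segments 1 to 4 (x axis), with black bars for the segment medians. PSMA2, PSMA3, PSMB2, psmb4, PSMD2, Psmd3, PSME3 and Psmf1 have their highest median in segment 4 and psme4b its lowest, and the segment 4 value of fish 2 is low in most panels.

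The models classed by name as inducible or variant catalytic subunits gave no call. None of the 5 models of this class, which takes in 2 models of PSMB8, 1 each of PSMB9 and PSMB11 and a PSMB6-like model, passed in any of the 6 comparisons. None passed either with fish as a block or without the segment 4 library of fish 2. In segment 4 against segment 1 the background was 17.1% higher and 14.8% lower. It was 22.0% and 19.8% with the block, and 18.0% and 15.5% without that library. With only 5 models, 0 calls is not read as a difference from the background. A Psmb7 model with a neighbouring identifier (LABE_00065431) was counted in the beta ring by its name and is described further on. It passed against segment 2 and, with fish as a block, against segment 1. The absence of calls in this class thus rests on that placing. The name rule found no model named PSMB6 or PSMB10. Segment accounted for a median of 2.24% of the sum of squares of these 5 models, against 21.1% over all 56 members and 22.4% over all models tested, which is a description with no test. That median is the value of the low Psmb8 model (LABE_00075790), where fish accounted for 87.6%. Segment accounted for 18.9% in the abundant Psmb8 model (LABE_00065432), 6.93% in psmb9, 2.18% in PSMB11 and 1.93% in psmb6l-b.

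The model psmb9 (LABE_00065429), whose product takes the place of PSMB6, stood at 2968, 3136 and 3832 in segment 4, against 2599, 3283 and 3578 in segment 1. Only 2 of 6 fish were higher in segment 4, and the log2 fold change was 0.02 (95% interval -0.18 to 0.23, adjusted p = 0.891). The model psmb6l-b (LABE_00065430), named as PSMB6-like, stood at 2687, 2900.3 and 3218 in segment 4, against 2690.4, 3063 and 3333 in segment 1. It was higher in 3 of 6 fish, with a log2 fold change of -0.05 (95% interval -0.26 to 0.15, adjusted p = 0.730). For both models the segments overlapped almost wholly, and the intervals leave room for changes of the size seen in the alpha ring's weaker members.

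The abundant PSMB8 model (LABE_00065432), whose product takes the place of PSMB5, stood at 3265, 3779.9 and 4648 in segment 4, against 3095, 3243 and 3758 in segment 1. It was higher in 6 of 6 fish but with wide overlap, and its log2 fold change of 0.19 (95% interval -0.03 to 0.42, adjusted p = 0.195) did not pass. PSMB11 (LABE_00080021), which in mouse and human forms the thymoproteasome of the thymic cortex, stood at 55.2, 106 and 209 in segment 4 and at 44.0, 86.7 and 181 in segment 1. Its fish differed widely within each segment, and its log2 fold change was 0.21 (95% interval -0.60 to 1.02, adjusted p = 0.746). The second Psmb8 model (LABE_00075790) stood at 24.6, 44.8 and 171 in segment 4, against 12.7, 36.6 and 177 in segment 1, with fish 5 the highest in both (log2 fold change 0.40, standard error 0.66, adjusted p = 0.701).

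Models named for the constitutive counterparts gave mixed values. Psmb5 (LABE_00053549), the chymotrypsin-like subunit, stood at 1376, 1929.5 and 2414 in segment 4, against 1306, 1681 and 1901 in segment 1. All 6 fish were higher in segment 4, and the log2 fold change, 0.26 with an adjusted p of 0.109 (standard error 0.12), passed only with fish as a block (adjusted p = 0.0390) or without the segment 4 library of fish 2 (log2 fold change 0.35, adjusted p = 0.0146), among these 3 fits. Within a library, the log2 ratio of psmb9 to Psmb5 was lower in segment 4 than in segment 1 in 5 of 6 fish (median difference -0.25, range -0.49 to 0.12). That of psmb6l-b to Psmb5 was lower in 5 of 6 (median difference -0.35, range -0.64 to 0.03), and that of Psmb8 to Psmb5 in 4 of 6 (median difference -0.11, range -0.33 to 0.31). Of these ratios only that of Psmb8 sets a model against the subunit it replaces. Those of psmb9 and psmb6l-b do not, since both are named for the place of PSMB6, for which no model was found. The ratios share Psmb5 and were not tested.

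The 2 models named Psmb7, the name of the trypsin-like subunit, went opposite ways. By its identifier and its correlations (below), LABE_00065431 stood with psmb9, psmb6l-b and Psmb8 rather than with the other Psmb7 model. Its name alone does not show that it is the constitutive subunit. LABE_00065431 stood at 3840.1, 4169 and 4763 in segment 4, against 2699, 3458 and 3634 in segment 1, and was the only member of the 56 whose segment 4 and segment 1 values did not overlap (1.79%, where 13.3% of all models did not). Without the segment 4 library of fish 2, 5 of the 56 members did not overlap (8.93%, where 18.4% of all models did not). Its log2 fold change was 0.33 (standard error 0.13, adjusted p = 0.0502), just short of the threshold, and it passed against segment 2 (0.37, adjusted p = 0.0463). LABE_00046117 stood at 642, 759 and 1108 in segment 4, against 736, 1117 and 1404 in segment 1, and was lower in segment 4 in 6 of 6 fish. Its log2 fold change was -0.36 (standard error 0.21, adjusted p = 0.208). With fish as a block both passed, the first higher and the second lower (adjusted p = 0.0189 and 0.0449). The log2 ratio of the first to the second was higher in segment 4 in all 6 fish, by 0.46 to 1.13.

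The identifiers of psmb9, psmb6l-b, Psmb7 (LABE_00065431) and Psmb8 (LABE_00065432) are consecutive in the deposited table. In the RefSeq annotation of the wrasse assembly fLabBer1.1, psmb8a, psmb13a, psmb12 and psmb9a are neighbours with no gene between them. The deposited identifiers are not those of that annotation (0 matched), so the 4 models were not assigned to those genes and keep the names of the table. After the segment means were taken off, the 4 models moved together over the 24 libraries, with Pearson's r of 0.59 to 0.81 (Spearman's rho of 0.51 to 0.77) for their 6 pairs. Against the other Psmb7 model (LABE_00046117) their r was -0.61 to -0.41 (rho of -0.64 to -0.31), and against Psmb5 it was -0.28 to 0.29 (rho of -0.27 to 0.23). These are descriptions over libraries that share 6 fish and, within a pair, their size factors, and models with the same name may share reads.

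**Figure D4:**
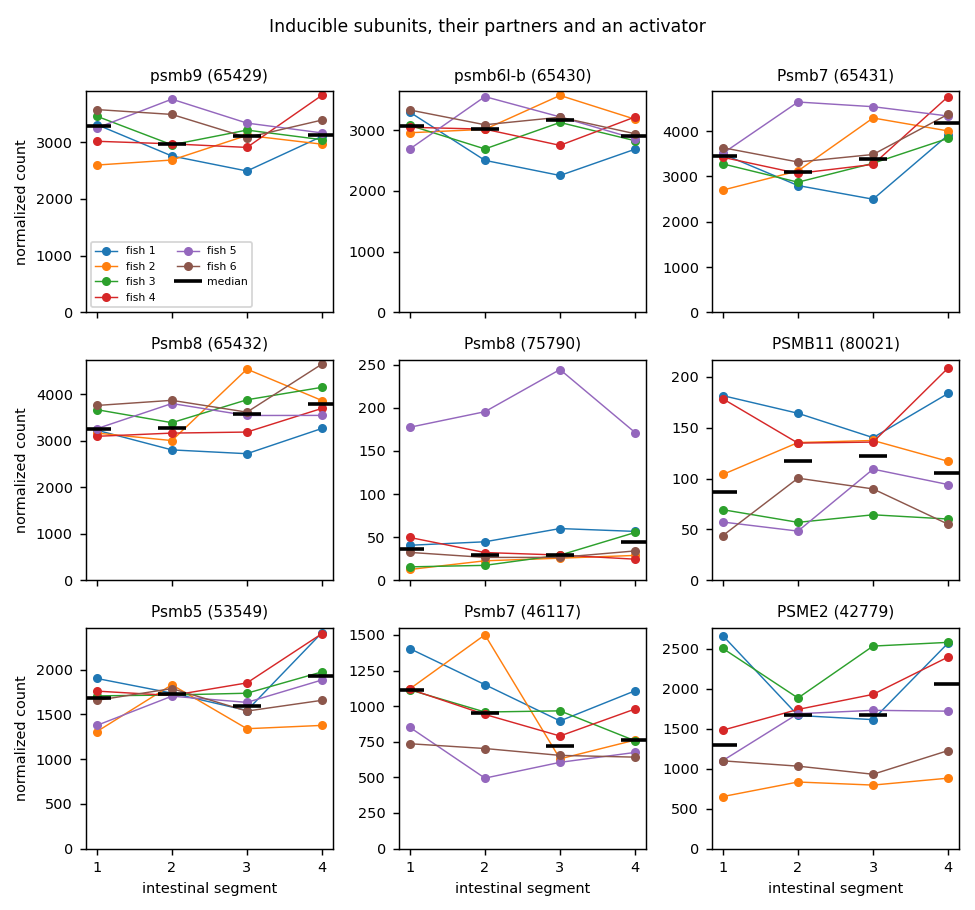
Normalized counts (y axis, linear from 0) of the 4 models with consecutive identifiers (psmb9, psmb6l-b, Psmb7 and Psmb8), of the second Psmb8 model, PSMB11, Psmb5, the second Psmb7 model and a PSME2 model, in each of 6 fish (coloured lines) along segments 1 to 4, with black bars for medians. The medians of psmb9 lie between 2965 and 3283, the values of Psmb7 (LABE_00065431) lie between 3840.1 and 4763 in segment 4, and fish 5 stands alone in the panel of Psmb8 (LABE_00075790).

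The ATPases of the base, which thread the unfolded substrate into the core, all leaned the same way, and 0 of 6 passed in the fit of all libraries (background 17.1%). Their log2 fold changes in segment 4 against segment 1 ran from 0.12 to 0.30. Psmc3 (LABE_00000202) had the largest, with 1816, 2660.2 and 3634 in segment 4, against 1856, 2169.9 and 2846 in segment 1. The segment 4 value of fish 2 was the lowest of all 12, and the other 5 fish were higher in their own segment 4. Its log2 fold change was 0.30 (standard error 0.13, adjusted p = 0.0898), and without the segment 4 library of fish 2 it was 0.42 (adjusted p = 0.00831), while with fish as a block it passed too (adjusted p = 0.0191). Without that library 5 of 6 ATPases passed (background 18.0%), and 4 of 6 did with fish as a block (background 22.0%).

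Of the other base subunits, PSMD2 (LABE_00022118), a scaffold that binds shuttle factors, passed. It stood at 2752, 4317 and 4719 in segment 4, against 2788, 2996 and 4011 in segment 1, and was higher in 5 of 6 fish. The segment 4 value of fish 2 again lay below all of segment 1. The log2 fold change was 0.32 (standard error 0.12, adjusted p = 0.0357), it was 0.43 without that library (adjusted p = 0.00113), and the call was lost without fish 1, 3, 4, 5 or 6 (adjusted p of at most 0.203). The other scaffold, PSMD1, had 0.24 (adjusted p = 0.0978) and passed with fish as a block (adjusted p = 0.0351) and without that library (adjusted p = 0.00482). The ubiquitin receptor PSMD4 had 0.09 and passed in none of these 3 fits.

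In the lid, all 12 tested models had a positive fold change, from 0.09 to 0.55, with a median of 0.16, and 1 passed (background 17.1% higher). This was Psmd3 (LABE_00081885), a structural subunit, with 531, 692 and 933 in segment 4, against 474, 528 and 610.3 in segment 1. All 6 fish were higher in segment 4 and the ranges overlapped. Its log2 fold change was 0.37 (standard error 0.12, adjusted p = 0.0193), and it was lost without fish 4 (adjusted p = 0.107). The deubiquitinase of the lid, Psmd14, had a log2 fold change of 0.16 that did not pass. The highest value, 0.55 for a PSMD13 model (LABE_00091965), belonged to a model with segment medians of 13.7 to 15.6 and a standard error of 0.56. With fish as a block 1 of 12 lid models passed (background 22.0%), and without the segment 4 library of fish 2 it was 4 (background 18.0%).

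The activators went both ways. Of the 7 models of activators and the inhibitor, 2 rose and 1 fell (background 17.1% and 14.8%), against 3 and 1 with fish as a block (background 22.0% and 19.8%) and 1 and 1 without the segment 4 library of fish 2 (background 18.0% and 15.5%). PSME4 (PA200) caps the core without ATPase and in mammals is known for the breakdown of acetylated histones and for DNA repair. Its model psme4b (LABE_00014027) fell along the gut, with medians of 1865, 1850.0, 1655 and 1379 in segments 1 to 4. It stood at 1122, 1379 and 1617 in segment 4, against 1590.3, 1865 and 2025 in segment 1. All 6 fish were lower in segment 4, and the ranges met only where the highest segment 4 value, that of fish 2, passed the lowest of segment 1. The log2 fold change was -0.42 (standard error 0.10, adjusted p = 0.00237), and against segment 2 it was -0.39 (adjusted p = 0.00728). It passed in each fit without 1 fish.

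PSME3 (PA28 gamma), a nuclear activator, went the other way. It stood at 459.9, 793 and 1076 in segment 4, against 458, 503 and 832 in segment 1, with segments 2 and 3 in between (medians 621 and 681). Of 6 fish, 5 were higher in segment 4, the segment 4 values of fish 2, fish 3 and fish 6 lay within the range of segment 1, and the log2 fold change was 0.44 (standard error 0.17, adjusted p = 0.0496). The call was lost without fish 3, 4, 5 or 6 (adjusted p of at most 0.224). The inhibitor PI31, Psmf1 (LABE_00061147), named here after its values were seen, stood at 1116, 1249.5 and 1397 in segment 4, against 1013, 1053 and 1238 in segment 1. All 6 fish were higher in segment 4 and the ranges overlapped. Its log2 fold change was 0.22 (standard error 0.08, adjusted p = 0.0453), a call that was lost in all 6 fits without 1 fish and without the segment 4 library of fish 2 (adjusted p = 0.0623).

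The interferon-inducible activator of 2 subunits, PSME1 and PSME2 (PA28 alpha and beta), gave no call in the fit of all libraries. Psme1 (LABE_00025596) stood at 4006, 5856 and 6266 in segment 4, against 3199, 5214 and 6648 in segment 1 (log2 fold change 0.16, 95% interval -0.20 to 0.53, adjusted p = 0.534). PSME2 (LABE_00070493) stood at 2097, 3171 and 4928 in segment 4, against 1874, 2453 and 3954 in segment 1 (log2 fold change 0.33, 95% interval -0.19 to 0.86, adjusted p = 0.348). Its fish kept widely different levels, all 6 were higher in segment 4, and with fish as a block it passed (adjusted p = 0.00516). The other PSME2 model (LABE_00042779) stood at 881, 2058 and 2580.4 in segment 4, against 651, 1292 and 2664 in segment 1 (log2 fold change 0.32, 95% interval -0.40 to 1.04, adjusted p = 0.536). With the segment means taken off, the 2 PSME2 models had a negative correlation over the 24 libraries (r = -0.59, rho = -0.65), whereas LABE_00070493 had r of 0.53 to 0.66 with the 4 models of consecutive identifiers.

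A second psme4b model (LABE_00037508) was near the floor of the filter. Its medians were 13.4, 12.2, 5.66 and 14.7 in segments 1 to 4. It stood at 1.56 to 10.1 in segment 3, against 9.87 to 27.9 in segment 1, and was lower in segment 3 than in segment 1 (log2 fold change -1.42, standard error 0.41, adjusted p = 0.0215). At this level a few reads decide the value.

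No chaperone of assembly passed in segment 4 against segment 1 (0 of 7 models, background 17.1% higher and 14.8% lower). PSMD10, a chaperone of the base, had 0.26 and passed with fish as a block (adjusted p = 0.0353) and without the segment 4 library of fish 2 (adjusted p = 0.0442), as the single one of the 7 in each. The largest difference was that of PSMG4 (LABE_00004752), a chaperone of the core, with 210.5, 239 and 319 in segment 4, against 150.3, 201.1 and 283 in segment 1. Its ranges overlapped, 4 of 6 fish were higher in segment 4, and its log2 fold change was 0.30 (standard error 0.19, adjusted p = 0.249). Psmd5 (LABE_00017671), a chaperone of the base that was named after its values were seen, was lowest in the middle of the gut, with medians of 543, 413, 361 and 479 in segments 1 to 4. Between segments 3 and 1 its log2 fold change was -0.50, with a standard error of 0.15 and an adjusted p of 0.0252, and it was lower in segment 3.

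Apart from the segments, the subunits of core and cap moved together from library to library. After the segment means were taken off, the 37 models of the alpha ring, beta ring, ATPases, other base and lid had a mean Pearson correlation of 0.53 over their 666 pairs, 620 of which were positive. Over all pairs of the 19515 models tested the mean was 0.00113. Positive and negative pairs cancel in that mean, and it was not matched to the members for level, so it is a weak yardstick. Within classes the mean was 0.83 for the 6 ATPases, 0.73 for the 9 alpha models, 0.61 for the 3 other base models, 0.47 for the 7 beta models and 0.34 for the 12 lid models, which include several of low level. Between the alpha ring and the ATPases, in different particles, it was 0.68. The inducible class, which includes PSMB11 and a Psmb8 model of low level, had a mean of 0.09 among its own models. With the alpha ring it was 0.28. Its abundant models psmb9, psmb6l-b and Psmb8 (LABE_00065432) had r of 0.64 to 0.71 with each other. The activators and inhibitor had -0.06 among their own.

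Among the 29 of these models with a mean of at least 1000, the mean correlation was 0.69, and without the segment 4 library of fish 2 it was 0.62. Psmd8 and Psmd14 of the lid followed the mean of the others most closely (r of 0.95 and 0.95), and the Psmb7 model with the consecutive identifier (LABE_00065431) least (r of 0.33). Of the models outside that set, PSME3 had an r of 0.80 with their mean and psmg2, a chaperone, 0.77, whereas psmb9 had 0.48, Psmb8 (LABE_00065432) -0.08 and psme4b (LABE_00014027) -0.42. These values describe 24 libraries from 6 fish that share size factors, and no test was made of them.

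**Figure D5:**
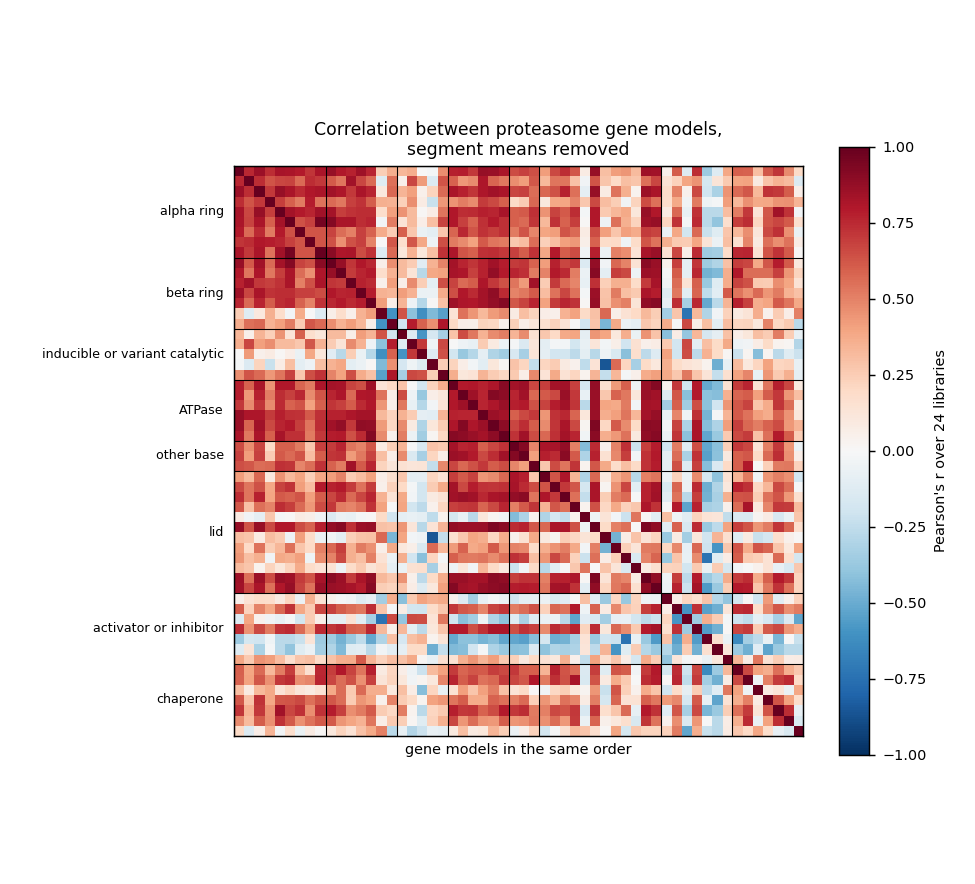
Pearson's r between all pairs of the 56 tested models over 24 libraries after the segment means were removed (colour, from -1 to 1), with lines between the 8 classes. The alpha ring, the ATPases and most of the beta ring form red blocks (class means of 0.73, 0.83 and 0.47), and the inducible class has paler cells (0.28 with the alpha ring).

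Some models differed more between fish than between segments. Fish accounted for a median of 37.1% of the sum of squares over the 56 members and 30.5% over all models tested. For 4 members the 4 libraries of 1 fish lay outside the range of the other 20, which was 7.14% of the members and 4.90% of all models. The low PSMB8 model (LABE_00075790) held values of 171 to 244 in fish 5, where the 20 libraries of other animals held 12.7 to 60.1. The low Psmd3 model (LABE_00030422) held 47.3 to 72.1 in fish 5, against 190.4 to 328 elsewhere.

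Each of these 2 models has a more abundant partner of the same name. In the abundant Psmd3 model (LABE_00081885) fish 5 was the highest fish in every segment, at 610.3, 610.3, 664 and 933 in segments 1 to 4, and in the abundant Psmb8 model it lay within the range of the others. The other 2 were activators. Psme1 held 3181 to 4006 in fish 4, against 4243 to 6654 in the others, and PSME2 (LABE_00042779) held 651 to 881 in fish 2, against 929.7 to 2664. Fish numbers were read from the sample titles, and the reads of near-identical copies could have been split between models of one name.

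The genes around the proteasome gave a mixed picture in the same comparison. Over all models 17.1% were higher and 14.8% lower, against 22.0% and 19.8% with fish as a block and 18.0% and 15.5% without the segment 4 library of fish 2. Of 23 models for ubiquitin and its activating and conjugating enzymes, 5 rose and 0 fell (5 and 0 also in both other fits), with a median log2 fold change of 0.16. The conjugating enzyme Ube2l3 (LABE_00059767) stood at 3846, 4883 and 5122 in segment 4, against 2930.2, 3188 and 3752 in segment 1, with no overlap (log2 fold change 0.49, standard error 0.13, adjusted p = 0.00437). The other models that rose and are named by the rule were a second Ube2l3 model (LABE_00011255, 0.44), Ube2d3 (0.29) and ube2c (0.82), all conjugating enzymes, of which ube2c serves mitosis.

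Of 23 models of shuttle factors, ubiquitin ligases and other partners that bind the proteasome, 3 rose and 1 fell (6 and 1 with the block, 5 and 1 without that library). The shuttle factor RAD23B rose in one model (LABE_00050117, 0.39, adjusted p = 0.00908) and fell in the other (LABE_00059942, -0.42, adjusted p = 0.0260), and the ligases Ube3c (0.24) and UBE3A (0.76) rose. Of 10 models of regulators of proteasome genes, 0 rose and 1 fell (3 and 2 with the block, 1 and 2 without that library). The model that fell was NFE2L2, a transcription factor of the oxidative stress response. It stood at 1919, 2394 and 2785 in segment 4, against 2930.2, 3557 and 4561 in segment 1, without overlap (log2 fold change -0.64, standard error 0.14, adjusted p = 0.000987). The related NFE2L1, looked up after the calls were seen and known as the main driver of proteasome genes in mammals when the protease is inhibited, had log2 fold changes of 0.11 and -0.61 in 2 models, and neither passed. The second (LABE_00050314) was lower in segment 4 in 6 of 6 fish (adjusted p = 0.0886) and passed with the block (adjusted p = 0.00284) and without that library (-0.76, adjusted p = 0.0301).

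In the list for p97 and the degradation of proteins from the endoplasmic reticulum, 2 of 33 models rose and 6 fell (4 and 7 with the block, 4 and 5 without the segment 4 library of fish 2), with a median of -0.02. Among the more abundant of those called, erlin1 (-0.29) and vimp (-0.31), which sit in the membrane of the reticulum, and the lectin ERLEC1 (-0.46) fell, of which vimp and ERLEC1 did not pass without that library (adjusted p = 0.0639 and 0.0580). The p97 ATPase itself, vcp (LABE_00047273), looked up after the calls were seen, had 0.24 (adjusted p = 0.0842) and passed with the block (adjusted p = 0.0242) and without that library (0.33, adjusted p = 0.00482).

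Of 74 models of the MHC class I peptide pathway, 4 rose and 1 fell (background 17.1% and 14.8%). With fish as a block 4 rose and 10 fell (background 22.0% and 19.8%), and without the segment 4 library of fish 2 it was 4 and 1. In each fit both shares lay under the background. The list's 83 models, of which 74 were tested, carried only 14 names. Those that rose and are named by the rule were folding proteins, in 1 model each of CALR (LABE_00059943, 0.65), CANX (LABE_00063279, 0.77) and PDIA3 (LABE_00021337, 0.48), while 2 other CALR models did not pass. ERAP1 (LABE_00051563), the aminopeptidase that trims peptides made by the proteasome, fell to 1024, 1227 and 1469 in segment 4, against 1653, 2075 and 2415 in segment 1, without overlap (log2 fold change -0.70, standard error 0.17, adjusted p = 0.00193). The peptide transporter, looked up after the calls were seen, had log2 fold changes of 0.36 for Tap1 and 0.10 and 0.10 for 2 models of Tap2, and none passed. Of 30 models of the interferon response 6 rose and 2 fell (background 17.1% and 14.8%), against 8 and 2 with the block and 7 and 2 without that library. Among the most abundant of those called, IRF8 (LABE_00000196, 1.01), JAK2 (LABE_00005025, 0.56) and DHX58 (0.86) rose and IRF2 (LABE_00017354, -0.54) fell. Another JAK2 model (LABE_00036207, -0.66) also fell. Some of these genes are also made by leukocytes, of whose marker models 5 of 11 were higher in segment 4 and 0 lower. The part of leukocytes in these values was not tested.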

How the data were processed

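RNA from 4 intestinal segments of 6 ballan wrasse (numbers as in the labels) was sequenced from TruSeq RNA v2 libraries, which do not mark strand. The authors trimmed reads with cutadapt and sickle, checked them with FastQC 0.9.2, aligned them to an assembly of their own with TopHat2, counted them with featureCounts (Subread) and scaled the counts with DESeq2. For other versions, and for reads that fit several models, the sources used here say nothing. The deposited values are normalized counts, a signal in which each library's reads were divided by its own size factor. Of the values of a library, 93.72% to 99.18% came to whole reads with a tolerance of 0.05, so reads were recovered for the count tests. The table held 27392 gene models, of which 4221 are named unknown, and 1 line without a model was left out.

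The test was that of limma 3.58.1 in R 4.3.3 on log2(value + 1) (trend on the mean, 4 segments as groups, all 24 libraries, no covariate, two-sided), over the 19515 models that reached 10 in 6 or more libraries, with Benjamini-Hochberg adjustment over all of them. A fold change on this scale understates that of low models. P-values of this test measure the spread between the fish of a segment, with the 24 libraries taken as independent though they come from 6 fish. Those with fish as a block measure the spread left once each fish's own level is removed. Depth was 7867202 to 29650319 reads. The test was tried on simulated data first. Each fish gave all segments, so fish numbers pair the libraries. Once segment means were removed, same-fish libraries had a mean r of 0.435 (0.157 or more for each pair). Libraries that differed in both fish and segment had one of -0.0864. Removing segment means ties the latter value to the former, so it is no independent contrast. The methods of the study do not say whether fish was a term of its test. It was left out of the main test here, and blocked values are given for counts between segments 4 and 1 that they move by over 1.5 times and for named models whose call they change.

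The members and the gene lists were chosen with earlier results of these data known. Models named in full are every PSMB8 to PSMB13 model and their partners PSMB5 to PSMB7, every PSME model, in each other class up to 4 called models with the largest change between segments 4 and 1 (or the largest where none was called), and from each list of neighbouring functions up to 4 called models with the highest mean. Others are said to be named after their values were seen. One model that this rule names is not reported here. Tests with edgeR 4.0.16 and DESeq2 1.42.0 on recovered reads, other pseudocounts, filters and scalings, and fits without each fish served as alternatives. Of the smooth muscle list 2 of 13 models were higher and 0 lower in segment 4 than in segment 1, and of the exocrine pancreas list 0 of 8 either way. Summed levels of the pancreas list ran from 264 to 128890 in segment 1 and from 479 to 175206 in segment 4. With so wide a spread, the lack of calls does not show equal levels. Names were set against RefSeq (fLabBer1.1), where 34 of the 47 member names occur, and no sequence is shown.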

Additional observations from a re-analysis of the deposited data

Results flagged for a closer look

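In 7 of 104 groups of 6 fish examined (26 named members in 4 segments), the highest or lowest value lay far from the other 5 by Dixon's criterion, which chance alone gives in about 1 in 20 groups. Fish 5 stood above the rest for the low Psmb8 model (LABE_00075790) in every segment, at 177, 195, 244 and 171 in segments 1 to 4, where the next fish stood at 49.7, 44.7, 60.1 and 56.8. Fish 5 was also high for Psmb7 (LABE_00065431) in segment 2, at 4643, where the next fish stood at 3319. In segment 1, fish 2 was high for the low psme4b model (LABE_00037508), at 27.9 with the next at 16.2. Fish 4 was high for Psmf1 in segment 1, at 1238 with the next at 1089.6.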

How the results depend on the processing

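Counts of members are given of 56 unless said otherwise. Shares of all models are given above only for the main fit, the block and the fit without the segment 4 library of fish 2. The other counts have no such share beside them, so they show how calls move with the setting and do not compare members with other models. Higher in segment 4 than in segment 1 were 6 with no filter on low values, 26 with quantile normalization, 21 with array weights and 22 with fish as a replicate block. It was 24 without the segment 4 library of fish 2 and 24 with the block and fish 2 left out, both settings chosen after seeing the data. Against segment 2 the counts were 3 with no filter, 12 with quantile normalization, 13 with the block, 18 without that library and 24 with the block and fish 2 left out. Against segment 3 they were 0 with no filter, 5 with quantile normalization, 9 with array weights, 6 with DESeq2, 11 with the block, 20 without that library and 29 with the block and fish 2 left out. Lower in segment 4 than in segment 1 were 2 with the block and 2 with the block and fish 2 left out, and lower than in segment 3 was 1 in each of these 2 settings and 1 without that library. Higher in segment 3 than in segment 1 were 2 with quantile normalization, and lower was 1 with a mean of at least 50. Differing over the 4 segments were 4 with no filter, 17 with quantile normalization, 14 with array weights, 17 with the block, 22 without that library and 29 with the block and fish 2 left out. Leaving out each fish gave 2 to 16 higher in segment 4 than in segment 1, 1 to 16 than in segment 2 and 0 to 16 than in segment 3, with 16 each time without fish 2. It gave 0 to 1 lower in segment 4 than in segment 2, 0 to 1 than in segment 3, 0 to 2 lower in segment 3 than in segment 1, and 1 to 16 differing over all segments. The cause of these moves was not tested. Of the 467 values of named members under alternatives, 406 kept their side of the threshold, 34 lost it, 27 gained it and 0 reversed. Models with values near 10 are limited by depth.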
